A study of Homo sapiens with 9 samples.

Results

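The mitochondrial ribosome makes the few proteins that mitochondrial DNA encodes, all of them parts of the respiratory chain or of ATP synthase. It has a large subunit, which holds the site where peptide bonds form, and a small subunit, which reads the mRNA. Its RNA comes from the mitochondrial genome, but its proteins come from nuclear genes on many chromosomes and are imported after translation in the cytoplasm. Many of these proteins have a counterpart in bacterial ribosomes, while others were added during the evolution of mitochondria.

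Described here are the genes whose symbol starts with MRPL or MRPS and a digit. The table of 19984 protein-coding genes held 78 of them, and all 78 reached the minimum mean of 1 normalized count over the 9 libraries. By the place of the protein in the ribosome, 51 encode the large subunit and 26 the small subunit. *MRPS18A* and *MRPS30* are counted with the large subunit, where their proteins sit. The remaining gene, *MRPS36*, keeps a ribosomal name, but its protein is known as a component of the 2-oxoglutarate dehydrogenase complex. The lowest mean over the 9 libraries was 1438 normalized counts (*MRPS31*), the median 7119 and the highest 27846 (*MRPL37*), so each member was measured far above the filter.

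The libraries came from LNCaP, a prostate cancer cell line with androgen receptor expression. 2 clones had lost the promoter and the first exons of the long noncoding RNA *EPCART* through CRISPR-Cas9 (del-4 and del-56, the *EPCART*-del clones), and 1 wild-type (WT) clone came from the same procedure. Each clone gave 3 libraries, all from cells grown for 48 h in the same serum-containing medium without any other treatment, and the 3 libraries of a clone are cultures of that clone. The study asked which transcripts changed when *EPCART* was absent, and each *EPCART*-del clone was compared with the same 3 WT libraries, so both comparisons share their reference. With 1 WT clone, the deletion and other differences between clones cannot be told apart, and the p-values cover the spread between cultures only. *EPCART* itself was not analysed here, because the table holds protein-coding genes.

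The libraries held 91074556 to 118877134 reads on genes. All 10 markers of LNCaP and prostate luminal cells chosen for the check were expressed in every library (summed 377293 to 406174 normalized counts). However, 3 of them were called higher and 6 lower in del-4, with 2 and 4 for del-56 (limma, adjusted p under 0.05, median log2 fold changes of -0.14 and -0.069). Among all tested genes, 20.5% were called higher and 20.2% lower in del-4, with 19.2% and 20.5% for del-56. Of 10 markers of other cell types, *PTPRC*, *CD3E*, *CD14*, *PECAM1*, *COL1A2*, *KRT5* and *CHGA* stayed at or below 14.9 normalized counts in each library, and the sum of the list was 1415 to 1501 in WT, 1595 to 2001 in del-4, with 1801 to 2008 in del-56, nearly all of it *COL1A1* and *ACTA2*. The 6 markers of this list that passed the filter gave 1 higher call in del-4 and 3 in del-56 (limma), and no lower call. The part of these transcripts in the results was not tested. In such bulk RNA, fewer cells of a kind and less RNA per cell cannot be told apart.

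Promoters of nuclear genes for mitochondrial proteins are known for sites of NRF1, of ETS factors such as GABPA (NRF-2) and of YY1. Exact matches on both strands to GCGCATGCG (NRF1), CCGGAAG (ETS) and AAGATGGCG (YY1) were sought in the RefSeq promoters (GRCh38.p14, 250 bases before to 50 after the start) of 69 matched members. The ETS letters stood in 29 promoters of members (42.0%) against 14.4% of 15321 promoters of all genes in the table, and the YY1 letters in 13 (18.8%) against 2.80%. The NRF1 letters stood in 3 promoters of members (4.35%), those of *MRPL17*, *MRPL22* and *MRPS18C*, against 2.73% of all. A longer form of them with 1 more C at the end, searched first, stood in that of *MRPL17* alone (1.45%, against 1.72% of all), so the order of the shares for NRF1 depends on the letters chosen. At least 1 of the 3 motifs was present in 39 members (56.5%) and in 18.5% of all genes. The ETS and YY1 letters share AAG, but no member held them as 1 overlapping run. The 250 bases before the start are printed for 5 members that are described below and whose window overlaps no annotated exon, with matches in capitals, 5′ to 3′ along the gene. *MRPS15* (chr1:36464385-36464634, minus strand) rose in both clones and *MRPL20* (chr1:1407294-1407543, minus strand) in del-4. *MRPS10* (chr6:42217862-42218111, minus strand) differed between the clones, and its YY1 match lies after the start, outside the printed stretch. *MRPL17* (chr11:6683341-6683590, minus strand) and *MRPS31* (chr13:40771191-40771440, minus strand) fell in both.
MRPS15: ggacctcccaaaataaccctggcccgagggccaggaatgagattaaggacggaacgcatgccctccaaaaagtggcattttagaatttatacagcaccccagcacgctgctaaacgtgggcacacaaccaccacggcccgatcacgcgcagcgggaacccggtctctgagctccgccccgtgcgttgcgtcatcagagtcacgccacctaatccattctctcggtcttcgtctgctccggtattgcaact
MRPL20: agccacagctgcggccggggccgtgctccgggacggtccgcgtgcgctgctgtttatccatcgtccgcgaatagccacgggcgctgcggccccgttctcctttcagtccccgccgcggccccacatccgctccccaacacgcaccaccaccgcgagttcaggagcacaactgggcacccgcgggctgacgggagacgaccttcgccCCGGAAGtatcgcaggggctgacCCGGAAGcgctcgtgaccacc
MRPS10: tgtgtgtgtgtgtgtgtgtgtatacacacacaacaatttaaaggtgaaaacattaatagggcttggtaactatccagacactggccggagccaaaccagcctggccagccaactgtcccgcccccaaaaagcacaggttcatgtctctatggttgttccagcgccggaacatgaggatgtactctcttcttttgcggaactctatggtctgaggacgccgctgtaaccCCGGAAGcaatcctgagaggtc
MRPL17: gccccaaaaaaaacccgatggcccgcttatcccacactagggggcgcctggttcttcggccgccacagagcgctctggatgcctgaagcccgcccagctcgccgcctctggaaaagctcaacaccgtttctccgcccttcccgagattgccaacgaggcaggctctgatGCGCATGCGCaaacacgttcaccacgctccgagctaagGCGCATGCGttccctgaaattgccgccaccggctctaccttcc
MRPS31: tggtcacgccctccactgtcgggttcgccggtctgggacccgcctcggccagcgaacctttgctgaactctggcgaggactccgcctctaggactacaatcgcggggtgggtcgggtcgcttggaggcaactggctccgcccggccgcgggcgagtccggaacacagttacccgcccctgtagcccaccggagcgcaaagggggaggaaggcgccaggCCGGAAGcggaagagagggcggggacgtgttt

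*MRPL20* showed 2 ETS matches, *MRPS10* and *MRPS31* 1 each, *MRPL17* 2 stretches with NRF1 matches, of which the first holds the letters on both strands, and *MRPS15* none. The median log2 fold change of the 29 members with the ETS letters was -0.0019 (del-4) and -0.046 (del-56), and that of the 40 members without them was -0.055 and -0.068. For the 13 members with the YY1 letters the medians were 0.026 and -0.0067, and for the 56 without them -0.045 and -0.068. The 3 members with the NRF1 letters had medians of 0.11 and 0.055, and the 66 without them -0.020 and -0.063. These differences were not tested.

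As a group, the mitochondrial ribosomal protein genes moved little and in both directions. In del-4, 11 members were higher and 22 lower than in WT at an adjusted p under 0.05 (limma on log2(normalized count + 1), Benjamini-Hochberg over all tested genes), which is 14.1% and 28.2% of the 78, where 20.5% of all 17401 tested genes were higher and 20.2% lower (40.7% in either direction). In del-56, 8 were higher and 23 lower (10.3% and 29.5%), where 19.2% of 17481 tested genes were higher and 20.5% lower (39.7% in either direction). The share of lower calls was above that of all genes and the share of higher calls below it in both clones. The median log2 fold change of the members was -0.0064 for del-4 and -0.057 for del-56, beside -0.0028 and -0.0011 for all tested genes. By library, the del-56 medians against the WT mean were -0.088, -0.018 and -0.0097 for replicates 1, 2 and 3. Without del-56 replicate 1 the del-56 median of the members was -0.024, and without WT replicate 1 it was -0.032. No member reached a log2 fold change of 1 in either direction by limma, edgeR or DESeq2, where 5.82% and 5.94% of tested genes passed it at an unadjusted p under 0.05. All tested genes were not matched to the members in level and include genes with a mean near 1 normalized count. These shares, and those of the calls, are therefore not those of like genes. At an unadjusted p under 0.05 alone, limma counted 41 members in del-4 and 35 in del-56, edgeR 40 and 35, and DESeq2 39 and 34. The furthest member, *MRPS31*, fell by 0.50 on the log2 scale in del-56, a 1.42-fold difference.

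The split of higher and lower calls shifted when each library was set to the same total in place of the size factors. The median of all tested genes then moved to -0.072 (del-4) and -0.030 (del-56), and 3 members were higher and 35 lower in del-4, against 5 and 28 for del-56. Calls over all tested genes shifted likewise under that scaling, to 13.6% higher and 28.4% lower in del-4 and to 15.7% and 22.9% in del-56. The share of higher among called members thereby went from 33.3% to 7.89% in del-4 (all tested genes, 50.3% to 32.4%) and from 25.8% to 15.2% in del-56 (48.4% to 40.7%). Quantile normalization gave 9 higher and 23 lower members in del-4 (28.1% higher) and 8 and 20 in del-56 (28.6%), near the values with size factors. WT replicate 1 was the highest of the WT libraries for 48 of the 78 members, and without it del-4 had 17 higher and 20 lower members and del-56 had 9 and 21. The libraries of del-4 and WT did not overlap for 41 members (14 higher, 27 lower), where 49.5% of tested genes did not overlap, and those of del-56 and WT for 35 (8 higher, 27 lower), where the share was 48.7%.

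In both clones alike, 7 of the members were higher and 15 lower, where 13.2% and 14% of 17191 genes tested in both were higher or lower in both. None was called in opposite directions, 36 were called in neither clone, 11 in del-4 alone and 9 in del-56 alone. These counts are not independent, since both clones were set against the same WT libraries. Among the 7 that were higher in both, 1 del-56 library of *MRPL47* lay within WT, and the other 6 had all 6 *EPCART*-del libraries above the 3 WT libraries.

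*MRPL37*, a large-subunit protein without a bacterial counterpart and the most abundant member by count, rose furthest. Its normalized counts were 24346, 23706 and 24028 in WT, 30782, 28992 and 30461 in del-4, then 29695, 29558 and 29049 in del-56. Every *EPCART*-del library lay above every WT library, and those of the 2 clones overlapped. The log2 fold change was 0.32 ± 0.035 (SE, n = 3 per clone, adjusted p = 7.78e-07, limma) for del-4 and 0.29 ± 0.035 (adjusted p = 5.6e-06, limma) for del-56. The gene (chr1:54184041-54225464, plus strand) overlaps *CYB5RL* and *SSBP3* on the opposite strand, and whether counting used the strand is not given in the sources used here.

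*MRPS15*, the small-subunit counterpart of bacterial S15, had 13146, 12896 and 12699 normalized counts in WT, 14821.5, 15036 and 15115 in del-4, then 14256, 15106.5 and 14717 in del-56. Its log2 fold change was 0.22 ± 0.034 (adjusted p = 5.08e-05, limma) for del-4 and 0.19 ± 0.037 (adjusted p = 7.91e-04, limma) for del-56. *MRPL11*, the counterpart of bacterial L11 at the site where translation factors bind, had 6471, 6041 and 6009 in WT, 6718, 6848 and 7159 in del-4, then 6847, 7362 and 7517 in del-56. It rose by 0.16 ± 0.042 (adjusted p = 0.00453, limma) and 0.23 ± 0.046 (adjusted p = 8.5e-04, limma) on the log2 scale. In these genes WT replicate 1 was the highest WT library and still lay under the lowest *EPCART*-del library.

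*MRPS22*, a small-subunit protein specific to mitochondria, had 6501, 6009 and 6041 normalized counts in WT, 6794 to 6944 in del-4, with 6769 to 7211 in del-56, with log2 fold changes of 0.15 ± 0.041 (adjusted p = 0.00706, limma) and 0.19 ± 0.044 (adjusted p = 0.0031, limma). *MRPL21* rose by 0.15 ± 0.040 (adjusted p = 0.00539, limma) for del-4 and by 0.12 ± 0.043 (adjusted p = 0.0369, limma) for del-56. *MRPL30*, on chromosome 2, rose by 0.11 ± 0.036 (adjusted p = 0.0176, limma) and 0.12 ± 0.037 (adjusted p = 0.0196, limma). These are the weakest of the 6. For del-56 the call of *MRPL21* ended when replicate 2 (adjusted p = 0.0685, limma) or 3 (0.177) of that clone or replicate 1 (0.0903) or 3 (0.114) of WT was left out. That of *MRPL30* in del-4 ended without del-4 replicate 3 (adjusted p = 0.0721, limma) or WT replicate 2 (0.0916), and for del-56 when replicate 2 of that clone (0.078) or of WT (0.0995) was left out. With each library set to the same total, *MRPL11*, *MRPS22*, *MRPL21* and *MRPL30* were no longer called in del-4 (log2 fold changes of 0.093, 0.079, 0.082 and 0.043), nor *MRPL21* and *MRPL30* in del-56 (0.090 and 0.088).

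*MRPS31*, a small-subunit protein specific to mitochondria, fell furthest. Its normalized counts were 1853, 1671 and 1719 in WT, 1350.3, 1319 and 1334 in del-4, then 1240.4, 1263 and 1193 in del-56, so that no library of any clone overlapped with those of another. The log2 fold change was -0.39 ± 0.063 (adjusted p = 7.6e-05, limma) for del-4 and -0.50 ± 0.066 (adjusted p = 1.8e-05, limma) for del-56. The difference between the clones was 0.12 ± 0.068 (adjusted p = 0.265, limma). The annotation names 4 pseudogenes of *MRPS31*, and how reads that match several copies were counted is not given in the sources used here, so its level is uncertain.

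*MRPS34*, also specific to mitochondria and part of the small subunit, had 20465, 21216.5 and 20364 normalized counts in WT, 16136, 15709 and 16218 in del-4, then 15784, 14636 and 16469 in del-56. All *EPCART*-del libraries lay below WT, with log2 fold changes of -0.37 ± 0.034 (adjusted p = 1.16e-07, limma) and -0.41 ± 0.043 (adjusted p = 1.93e-06, limma). It lies head to head with *EME2*, a gene for a subunit of a DNA endonuclease, which it overlaps on the opposite strand. *EME2* had log2 fold changes of -0.53 and -0.56.

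*MRPL55*, a large-subunit protein, had 6394, 7104 and 6919 normalized counts in WT, 5568, 4966 and 5440.1 in del-4, then 5231.5, 5015 and 5058 in del-56. It fell by 0.35 ± 0.049 (adjusted p = 1.41e-05, limma) and 0.41 ± 0.046 (adjusted p = 2.71e-06, limma) on the log2 scale. *MRPL28*, the counterpart of bacterial L28, had 6883, 7814 and 7026 in WT, 5963, 5696 and 5907 in del-4, then 5283, 5387 and 5606 in del-56. Its log2 fold changes were -0.30 ± 0.046 (adjusted p = 3.84e-05, limma) and -0.41 ± 0.049 (adjusted p = 5.78e-06, limma). For both genes the lowest WT library lay above the highest *EPCART*-del library.

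*MRPL46*, a large-subunit protein specific to mitochondria, had 2549, 2525 and 2714 normalized counts in WT, 2122, 2124 and 2103 in del-4, then 1841, 2094 and 2242 in del-56. It fell by 0.29 ± 0.052 and 0.34 ± 0.068 on the log2 scale. Its head-to-head neighbour *MRPS11*, another member, starts 63 bases away and had log2 fold changes of -0.058 (del-4, adjusted p = 0.245, limma) and -0.14 (del-56, adjusted p = 0.0102, limma). *MRPS9* and *MRPL17*, counterparts of bacterial S9 and L17, and *MRPL53*, specific to mitochondria, complete the 8 largest falls among the 15 members lower in both clones. *MRPS9* had 5110.2, 4959 and 4913 normalized counts in WT against 4033 to 4151 in del-4, with 4145 to 4329 in del-56. *MRPL17* had 11173, 11308 and 11699 in WT against 8883 to 10449.9 and 9390.3 to 9643. *MRPL53* had 4761, 4757 and 4733 in WT against 3772 to 4316 and 3893 to 4131. The ranges of the *EPCART*-del clones lay below WT in each of these genes, with log2 fold changes between -0.29 and -0.23.

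**Figure D1:**
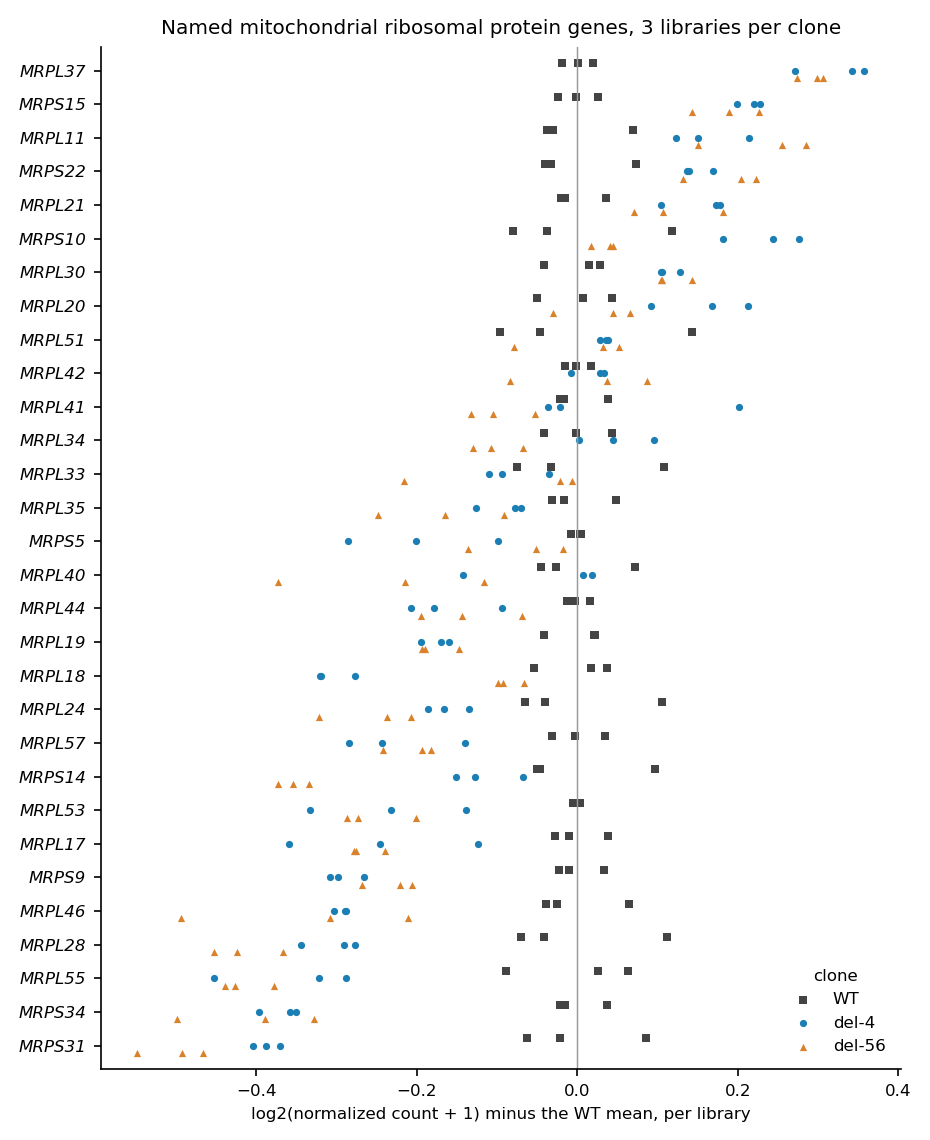
Each point is a library of 1 of the 30 named members (rows, in the order of the log2 fold change averaged over the clones), placed by its log2(normalized count + 1) minus the mean of the 3 WT libraries, for WT (squares), del-4 (circles) and del-56 (triangles). From *MRPL57* down, every *EPCART*-del library stands left of the WT points of its row, and *MRPS31* reaches furthest, with a log2 fold change of -0.50 in del-56.

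Calls in both directions fell in both subunits. Of the 51 large-subunit members, 7 were higher and 14 lower in del-4 (13.7% and 27.5%), with 6 and 17 in del-56 (11.8% and 33.3%). Of the 26 small-subunit members, 4 were higher and 8 lower in del-4 (15.4% and 30.8%), with 2 and 6 in del-56 (7.69% and 23.1%). All tested genes had 20.5% higher and 20.2% lower in del-4, with 19.2% and 20.5% in del-56. The median log2 fold change was -0.0019 and -0.046 for the large subunit and -0.063 and -0.072 for the small subunit. Without del-56 replicate 1 the del-56 medians were -0.0058 for the large and -0.057 for the small subunit. Among members called in both clones, 5 large-subunit and 2 small-subunit genes were higher and 11 and 4 lower, where 13.2% of all genes tested in both were higher and 14% lower. Grouped by origin, 9 of 48 members with a bacterial counterpart were higher and 12 lower in del-4 (18.75% and 25%), with 6 and 13 for del-56 (12.5% and 27.1%). Of the 29 members without one, 2 were higher and 10 lower in each clone (6.9% and 34.5%). No test was made between these groups.

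The summed normalized counts of the members were 694490 to 721630 in WT, 685660 to 706930 in del-4, with 667530 to 692940 in del-56. As a share of all normalized counts of a library, the members held 0.652% to 0.662% in WT, 0.614% to 0.619% in del-4, with 0.608% to 0.629% in del-56. The share was lower in every *EPCART*-del library than in every WT library, while the sums of del-4 overlapped with WT. A share sets each library to the same total, and under that scaling the typical tested gene was lower as well. On the log2 scale, all tested genes then had medians of -0.072 (del-4) and -0.030 (del-56), and the members -0.076 and -0.0865. For del-4 the median of the members was thus close to that of all tested genes, and for del-56 it was further below 0. The sum of the large subunit over that of the small subunit was 1.789, 1.794 and 1.793 in WT, 1.855, 1.823 and 1.828 in del-4, then 1.822, 1.857 and 1.843 in del-56. Against WT the mean ratio was higher by 0.043 (del-4) and 0.048 (del-56), and the WT libraries lay below all others. That order depended on which members were summed. Without *MRPL37* and *MRPS34*, a pair of abundant members chosen after their values were seen, the difference turned to -0.016 and -0.011, and the ratios were 1.841 to 1.857 in WT, 1.822 to 1.851 in del-4, with 1.817 to 1.848 in del-56, which overlap. Without all 20 members on chromosomes 1, 2, 13 and 16, both of these genes among them, the difference stayed positive (0.022 and 0.031), with ratios of 1.630 to 1.640 in WT, 1.645 to 1.670 in del-4 and 1.637 to 1.681 in del-56, of which those of del-56 overlap with WT. With 3 libraries against 3, a two-sided exact permutation test cannot go below 0.10, so none was made.

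**Figure D2:**
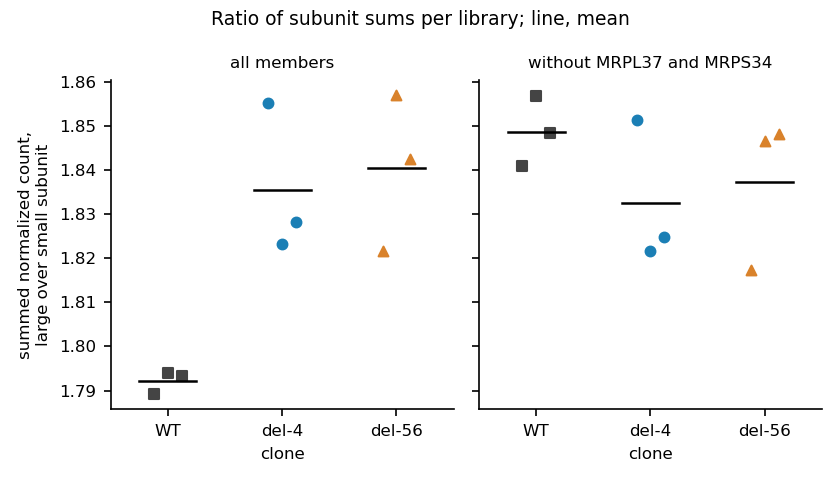
Each point is the summed normalized count of large-subunit members over that of small-subunit members in 1 library, with a line at the mean of each clone, for all members (left) and without *MRPL37* and *MRPS34* (right). The vertical axis is cut and runs from about the lowest to the highest ratio. WT lies below the other clones at left (1.789 to 1.794) and overlaps with them at right (1.841 to 1.857).

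Per length of the MANE Select transcript, the levels of members spanned a wide range. *MRPL41* (26809 normalized counts per kilobase), *MRPL20* (26714) and *MRPL51* (21387) were the highest. *MRPL42* (819), *MRPS31* (968) and *MRPL35* (1179) were the lowest. The order of neighbours depends on the transcript chosen. The MANE transcript of *MRPL42* has 15557 bases, and over all exons of each gene *MRPL20* went from rank 2 to rank 13 of the 78, while *MRPL41* kept rank 1. Of these 6 genes, *MRPL51* and *MRPL42* were called in no comparison, and *MRPL41* was called lower in del-56 with a log2 fold change of -0.097 ± 0.037 just inside the threshold (adjusted p = 0.0499, limma), a call that ended without any 1 of 5 libraries (WT replicates 1, 2 or 3, del-56 replicates 2 or 3). It also ended with edgeR (adjusted p = 0.0639), and in limma with 1 fit of 9 libraries (adjusted p = 0.135), the lower pseudocount, no filter or the replicate block.

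Members on chromosomes 1, 2, 13 and 16 were compared with the rest. These chromosomes were chosen with earlier results of these libraries known, so their values are a description. Of the 20 members there, 4 were higher and 12 lower in del-4, against 3 and 13 for del-56, with a median log2 fold change of -0.17 in each clone. Of all tested genes on these chromosomes in del-4 (3954), 781 were higher and 1396 lower, and in del-56 (3967) 753 and 1363, with medians of -0.12 and -0.097. Of the 58 members on other chromosomes, 7 were higher and 10 lower in del-4, against 5 and 10 for del-56, which is 12.1% and 17.2% in del-4, with 8.62% and 17.2% for del-56. Of all tested genes on those chromosomes, 20.7% were higher and 15.8% lower in del-4, with 19.3% and 16.4% for del-56. The medians were 0.013 and -0.029 for the members and 0.015 and 0.016 for all tested genes there. Without del-56 replicate 1 the del-56 median of these members was 0.0074.

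Along these chromosomes most members had the sign of the genes around them. On chromosome 1 below position 120000000, in its short arm, all tested genes had medians of 0.22 and 0.23. The 3 members there, *MRPL20*, *MRPS15* and *MRPL37*, were all higher in del-4, and *MRPS15* and *MRPL37* were higher in del-56. Of all tested genes in that part, 54.2% were called higher in del-4 and 51.6% in del-56. With each library set to the same total, *MRPL20* was no longer called in del-4 (log2 fold change of 0.088, adjusted p = 0.0525, limma). On the rest of chromosome 1, tested genes had medians of -0.074 and -0.075, and 31.2% (del-4) and 31.3% (del-56) of them were called lower. There *MRPL55*, *MRPL24* and *MRPL9* were lower in both clones and *MRPS14* in del-56, and *MRPS21* was called in neither. *MRPL24*, the counterpart of bacterial L24, had log2 fold changes of -0.16 ± 0.042 (adjusted p = 0.00452, limma) and -0.26 ± 0.047 (adjusted p = 3.9e-04, limma).

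Chromosome 2 held 8 members, of which 1 was higher and 5 lower in each clone (12.5% and 62.5%), where 8.65% of all tested genes on the chromosome were higher and 38.9% lower in del-4, with 7.84% and 39.4% for del-56. The medians were -0.17 and -0.15 for the members and -0.15 and -0.16 for all tested genes there. *MRPS9*, *MRPL53*, *MRPL19* and *MRPL44* were lower in both. *MRPL19*, the counterpart of bacterial L19, had 13343 to 13948 normalized counts in WT, 12006 to 12299 in del-4, with 12012.5 to 12407 in del-56. Its log2 fold changes were -0.17 ± 0.035 (adjusted p = 5.4e-04, limma) and -0.18 ± 0.037 (adjusted p = 0.00111, limma). *MRPL44*, which carries a ribonuclease III fold, had values of -0.16 ± 0.044 (adjusted p = 0.00662, limma) and -0.14 ± 0.045 (adjusted p = 0.0254, limma), and its call in del-56 ended without del-56 replicate 1 (adjusted p = 0.0767, limma) or replicate 2 (0.0684), or without WT replicate 2 (0.0663) or WT replicate 3 (0.0886). *MRPS5* was lower in del-4 (-0.20 ± 0.046, adjusted p = 0.00217, limma) and not called in del-56 (-0.069 ± 0.042, adjusted p = 0.223, limma), and the reverse held for *MRPL35* (-0.092 ± 0.042, adjusted p = 0.0945, limma, and -0.17 ± 0.049, adjusted p = 0.0115, limma), whose del-56 call ended without WT replicate 1 (adjusted p = 0.0501, limma). Neither gene differed between the clones at the threshold (adjusted p = 0.0895 and 0.306, limma). *MRPL33* was called in neither clone (-0.080 and -0.082), and *MRPL30* was the single member of chromosome 2 that rose.

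The 2 members on chromosome 13, *MRPS31* and *MRPL57*, and the 2 on chromosome 16, *MRPS34* and *MRPL28*, were lower in both clones. *MRPL57*, a large-subunit protein specific to mitochondria, had 14735, 15022 and 15424 normalized counts in WT, 12356 to 13661 in del-4, with 12735 to 13264 in del-56, with log2 fold changes of -0.22 ± 0.040 (adjusted p = 1.9e-04, limma) and -0.21 ± 0.037 (adjusted p = 3.0e-04, limma). The annotation names 5 pseudogenes of it. All tested genes had medians of -0.17 and -0.16 on chromosome 13, where 43.1% (del-4) and 42.2% (del-56) were called lower, and of -0.34 and -0.31 on chromosome 16, where 69.8% and 65.0% were. With 2 members each, the counts on these chromosomes cannot be set apart from those shares.

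**Figure D3:**
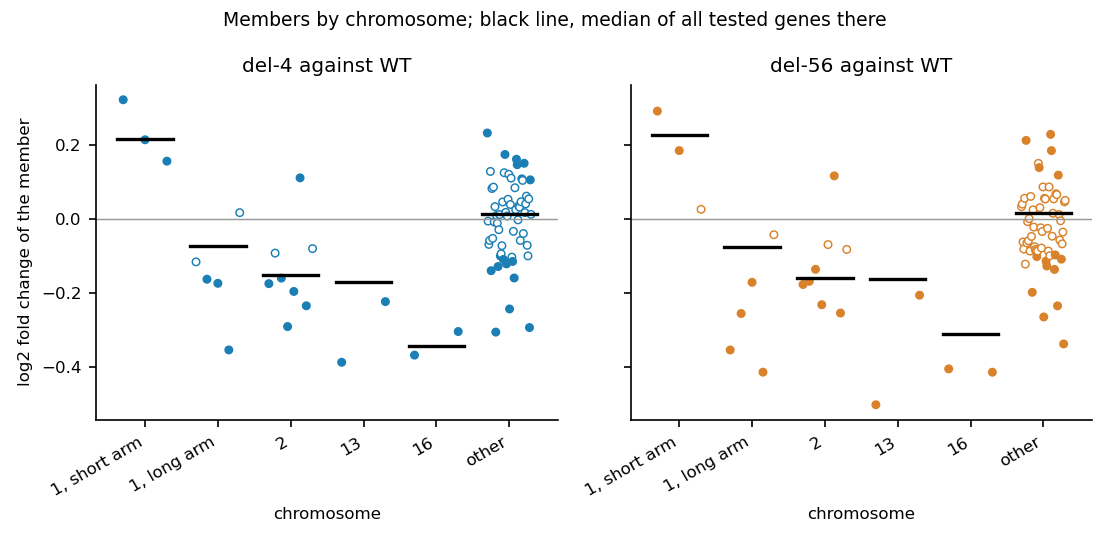
Each point is a member, placed by its log2 fold change against WT in del-4 (left) and del-56 (right) within its chromosome, filled where the adjusted p (limma) was under 0.05, and the black lines are medians of all tested genes there. Members on the short arm of chromosome 1 lie above 0 and those on chromosomes 13 and 16 below, as do the black lines (0.22, -0.17 and -0.34 in del-4), while the 58 members on other chromosomes spread around 0.

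The comparison was repeated gene by gene. For each member the median log2 fold change of the 20 nearest tested genes was taken, in the order of their starts along the chromosome and with the member itself left out. Across the 78 members Pearson's r between the member and its neighbours was 0.557 for del-4 and 0.531 for del-56 (Spearman's rho 0.469 and 0.438), and 52 and 54 members had the sign of their neighbours. For the 17048 other tested genes r was 0.194 and 0.166 (rho 0.299 and 0.288), with 61.8% and 61.3% of the same sign. These genes were not matched to the members in level and include genes with a mean near 1 normalized count. Log2 fold changes in del-4 ran from -10.7 to 7.46 over all tested genes, against -0.39 to 0.32 for members. The values of r are therefore not those of like sets of genes. Both correlations run across genes, which share libraries and, where they are near each other, neighbours, so that genes are not independent replicates. *MRPS34* (-0.37 in del-4, neighbours -0.31), *MRPL28* (-0.30, neighbours -0.33), *MRPS9* (-0.29, neighbours -0.27) and *MRPS15* (0.22, neighbours 0.21) lay near their neighbours. Others did not. *MRPL55* differed from the median of its neighbours by -0.38 in del-4 and -0.33 in del-56, *MRPL17* by -0.28 and -0.35, and *MRPL46* by -0.22 and -0.26. *MRPL30* differed by 0.29 and 0.26 and *MRPL11* by 0.16 and 0.29. The gap had the same sign in both clones for 59 of the 78 members, and both gaps contain the same WT libraries.

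**Figure D4:**
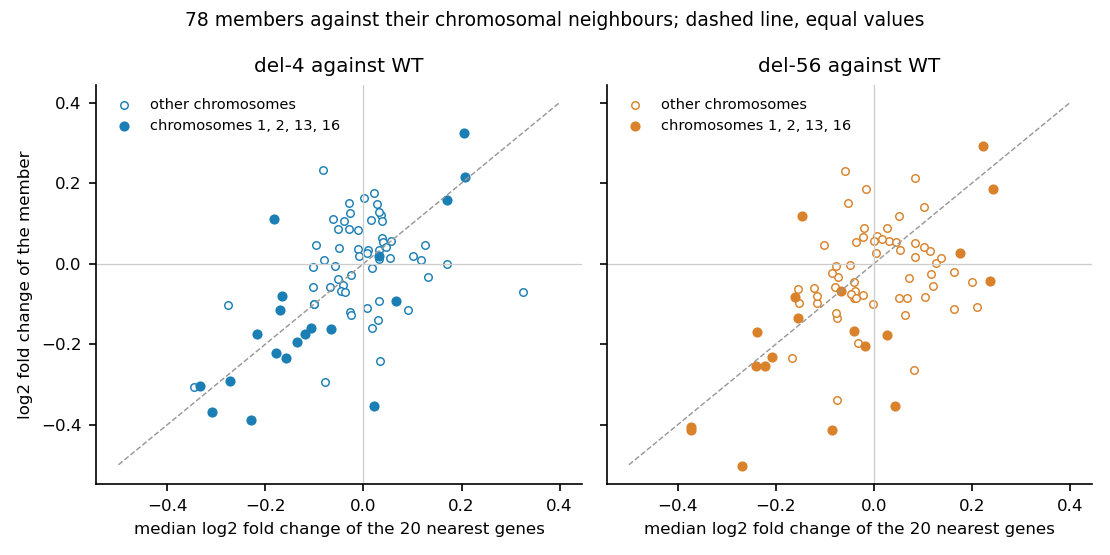
Each point is 1 of the 78 members, with the median log2 fold change of its 20 nearest tested genes on the horizontal axis and its own on the vertical axis, for del-4 (left) and del-56 (right), filled for chromosomes 1, 2, 13 and 16. The dashed line marks equal values, and points run along it with wide scatter (r = 0.557 and 0.531).

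Many members lie head to head with another gene. Of the 78 members, 27 (34.6%) had the start of another protein-coding gene on the opposite strand within 1000 bases, against 15% of 17363 tested genes. In 16 of 25 distinct tested pairs (64%), in each clone, member and partner had log2 fold changes of the same sign, close to the share over head-to-head pairs of other tested genes (64.3% of 1306 for del-4 and 62.4% of 1311 for del-56). *MRPL47* and *NDUFB5*, a gene for a subunit of respiratory complex I whose start lies 41 bases away, were both higher (0.18 and 0.17 in del-4, 0.14 and 0.16 in del-56). *MRPL57* and *SKA3*, for a protein of the kinetochore, were both lower (-0.22 and -0.39 in del-4, -0.21 and -0.30 in del-56), as were *MRPL9* and *OAZ3* (-0.17 and -0.20 in each clone). *MRPL30* and *MITD1* went apart in del-4 (0.11 and -0.24, adjusted p of *MITD1* = 0.0272, limma). 37 members overlap another protein-coding gene and 36 have named pseudogenes (79 in all), which limits how firmly reads can be given to them.

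Between the *EPCART*-del clones, 5 members were higher and 1 lower in del-4 (6.41% and 1.28% of the 78), where 10.9% of 17447 tested genes were higher and 9% lower (19.9% in either direction). None of these 6 differed by a log2 value of 1 or more, which 4.28% of tested genes did at an unadjusted p under 0.05. The median log2 difference was 0.026 (-0.0026 for all tested genes), and the libraries of the clones did not overlap for 20 members (16 higher and 4 lower in del-4), against 34.7% of tested genes. With each library set to the same total, 2 members were higher and 4 lower, where 7.90% of tested genes were higher and 13.6% lower, and with quantile normalization 3 and 2 (9.30% and 9.98%).

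*MRPS14*, the counterpart of bacterial S14, had 6280.5, 5669 and 5688 normalized counts in WT, 5376, 5288 and 5602 in del-4, then 4591, 4534 and 4655 in del-56. The del-56 libraries lay below all others, and del-4 lay just under WT. The difference of del-4 from del-56 was 0.24 ± 0.043 (adjusted p = 5.4e-04, limma). *MRPL18*, which takes part in importing 5S rRNA into mitochondria, showed the opposite. Its counts were 13339, 13161 and 12523 in WT, 10408, 10418 and 10733.5 in del-4, then 12140.4, 12192 and 12412 in del-56, a difference of -0.22 ± 0.036 (adjusted p = 2.4e-04, limma). The 20 nearest genes of *MRPL18* had medians of -0.34 (del-4) and 0.068 (del-56), and its head-to-head partner *TCP1*, for a subunit of the cytoplasmic chaperonin, -0.18 (adjusted p = 5.3e-04, limma) and 0.11 (adjusted p = 0.0508, limma).

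*MRPS10*, the counterpart of bacterial S10, had 4923, 4292 and 4419 normalized counts in WT, 5143, 5370.35 and 5495 in del-4, then 4589, 4668 and 4677 in del-56. All del-4 libraries lay above the rest, while del-56 lay within WT, and the clones differed by 0.20 ± 0.043 (adjusted p = 0.0027, limma). *MRPL40*, a mitochondrial addition to the large subunit, was lower in del-56 (4303, 4800.2 and 5140.2) than in del-4 (5643, 5049.6 and 5601) by 0.20 ± 0.060 (adjusted p = 0.0273, limma), although 1 del-56 library lay above 1 del-4 library. *MRPL34*, the counterpart of bacterial L34, had 9361, 9036 and 8775 in del-4, then 8138, 8012 and 8366 in del-56, a difference of 0.15 ± 0.039 (adjusted p = 0.0125, limma). *MRPL20* differed by 0.13 ± 0.040 (adjusted p = 0.029, limma). These last 3 calls ended when single libraries were left out: *MRPL40* without del-4 replicate 1 (adjusted p = 0.136, limma), del-4 replicate 3 (0.134), del-56 replicate 1 (0.112) or del-56 replicate 2 (0.0576), *MRPL34* without del-4 replicate 1 (0.0765) or del-56 replicate 2 (0.0602), and *MRPL20* without del-4 replicate 1 (0.154), del-4 replicate 3 (0.115), del-56 replicate 1 (0.0735) or del-56 replicate 3 (0.0689). All 3 also ended with each library set to the same total. *MRPL34* was also called lower in del-56 than in WT (-0.10 ± 0.039, adjusted p = 0.04999, limma), at the edge of the threshold, and without any 1 of 5 libraries (each del-56 library, WT replicate 2 or WT replicate 3) it was not. Nor was it called by edgeR (adjusted p = 0.0594) or DESeq2 (adjusted p = 0.0571), or with quantile normalization, the lower pseudocount, no filter or the replicate block.

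Other genes of mitochondrial translation, from lists chosen by function, moved in both directions as well. Over all tested genes, 20.5% were called higher and 20.2% lower in del-4, with 19.2% and 20.5% in del-56. The lists are short and were not tested as sets. Of the 5 proteins of the mitochondrial ribosome with other names, 1 was higher and 1 lower in del-4, against 1 and 3 for del-56. *PTCD3*, a small-subunit protein, had 7513, 7298 and 7450 normalized counts in WT, 5856, 6103 and 5902 in del-4, then 5529, 6365 and 6126 in del-56, with log2 fold changes of -0.32 ± 0.038 (adjusted p = 2.3e-06, limma) and -0.31 ± 0.049 (adjusted p = 1.1e-04, limma). *AURKAIP1*, also of the small subunit, rose by 0.17 ± 0.040 and 0.10 ± 0.037. Of 26 assembly factors, 2 were higher and 9 lower in del-4, against 2 and 8 for del-56, among them the helicase *DDX28* (-0.36 and -0.35) and *MPV17L2* (-0.25 and -0.37). Of 19 translation factors, 2 were higher and 5 lower in del-4, against 3 and 4 for del-56. *TUFM*, the mitochondrial elongation factor Tu, had values of -0.22 ± 0.035 and -0.35 ± 0.038, and *MTIF2*, an initiation factor, of -0.29 ± 0.046 and -0.26 ± 0.055.

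Of 20 genes that charge mitochondrial tRNAs, 3 were higher and 10 lower in del-4, against 4 and 7 for del-56. The shares over all tested genes, for this list and the next 2, were again 20.5% and 20.2% in del-4, with 19.2% and 20.5% in del-56. *EARS2*, the glutamyl-tRNA synthetase, had 7606, 7749 and 7669 normalized counts in WT, 5778, 5622 and 5354 in del-4, then 5653, 5681 and 5675 in del-56, a log2 fold change of -0.46 ± 0.040 (adjusted p = 4.5e-08, limma) and -0.44 ± 0.038 (adjusted p = 1.9e-07, limma). *IARS2*, the isoleucyl-tRNA synthetase, had values of -0.43 and -0.36. Of 10 genes for replication and transcription of mitochondrial DNA, 1 was higher and 2 lower in del-4, against 1 and 0 for del-56, and *MTERF2* was higher in both (0.24 and 0.31). Of 9 regulators of mitochondrial genes, 1 was higher in del-4 and 3 in del-56, with *YY1* at 0.12 ± 0.039 (adjusted p = 0.0169, limma) and 0.11 ± 0.039 (adjusted p = 0.0306, limma).

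The mRNAs that the mitochondrial ribosome translates were called in 1 direction. Of the 13 protein-coding genes of mitochondrial DNA, 9 were higher in del-4 and 3 in del-56, where 20.5% and 19.2% of all tested genes were higher. None of the 13 was lower, and their median log2 fold change was 0.30 and 0.14. *MT-CO3*, for a subunit of cytochrome c oxidase, had 169872, 140707 and 126777 normalized counts in WT, 220469, 190027 and 215825 in del-4, then 214815, 164443 and 179882 in del-56, a log2 fold change of 0.53 ± 0.079 (adjusted p = 3.4e-05, limma) and 0.36 ± 0.096 (adjusted p = 0.00729, limma). *MT-CO2*, for another subunit, rose by 0.47 ± 0.081 (adjusted p = 1.3e-04, limma) and 0.24 ± 0.082 (adjusted p = 0.0271, limma). WT replicate 1 stood apart, with 1.37% of its normalized counts in these mRNAs against 1.08% and 1.06% in the other WT libraries, 1.35% to 1.51% in del-4, with 1.22% to 1.41% in del-56. Without WT replicate 1 the counts were 13 and 10, without WT replicate 2 they were 7 and 1, and without WT replicate 3 they were 6 and 0. In del-56 they were 1 without del-56 replicate 1 and 2 without either of the other del-56 libraries. DESeq2 called 6 and 0 and quantile normalization left 6 and 0, so the counts in both clones depend on the library, the tool and the scaling. With quantile normalization the median log2 fold change in del-4 was 0.14 in place of 0.30. Libraries were prepared from polyA RNA, in which most mitochondrial mRNAs can be captured by their own short tails.

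**Figure D5:**
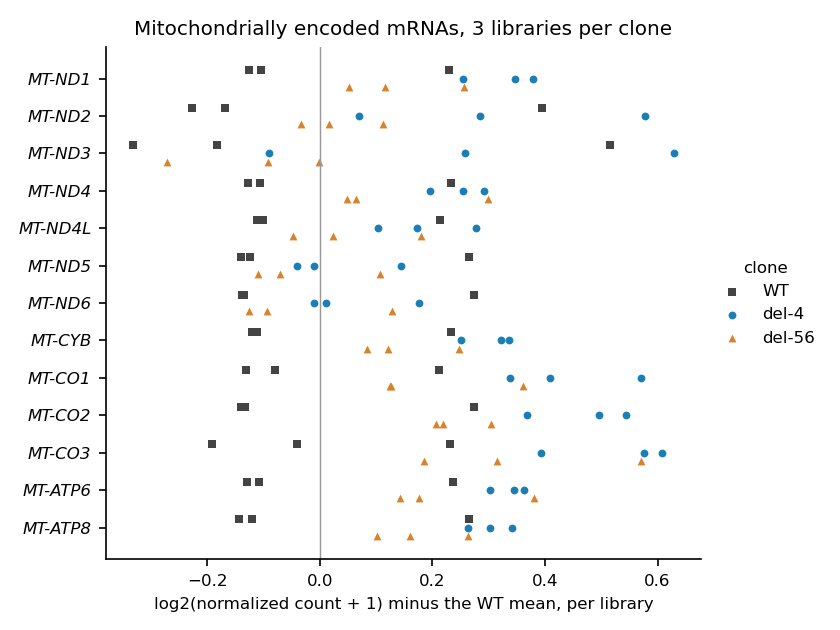
Each point is a library of 1 of the 13 protein-coding genes of mitochondrial DNA, placed by its log2(normalized count + 1) minus the mean of the 3 WT libraries, for WT (squares), del-4 (circles) and del-56 (triangles). In each gene 1 WT library, replicate 1, lies right of the other 2, and the del-4 libraries of *MT-CO2* and *MT-CO3* lie right of all WT libraries.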

How the data were processed

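RNA-seq (polyA-enriched, strand-specific, 150 bp paired-end) was available for 9 LNCaP libraries, 3 from each of the del-4, del-56 and WT clones, grouped by their sample labels. Per the study's methods and the submitters' processing notes, the authors checked reads with FastQC 0.11.8 and Trim Galore 0.6.5, aligned them to GRCh38 with STAR 2.71a, indexed them with SAMtools 1.8, counted reads on GENCODE protein-coding transcripts with BEDTools 2.27.1 multicov, and used DESeq2. The deposited table holds this signal as normalized counts, that is read counts divided by 1 size factor per library. In all 9 libraries 100% of values were whole reads after multiplication by the size factor (tolerance 1e-06), and totals on genes were 91074556 to 118877134 reads. Size factors make libraries comparable only if most genes do not change, and rescaled counts no longer carry their counting error.

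Of 19984 gene IDs, 19905 matched GENCODE 44, from which symbols, GRCh38 positions and transcript lengths were taken, and 79 did not. Values were tested as log2(normalized count + 1) with limma 3.58.1 (R 4.3.3, trended empirical Bayes) on the 6 libraries of each comparison, for genes with a mean of at least 1, with Benjamini-Hochberg adjustment over all tested genes and a threshold of 0.05. Since 1 is added to each value, a fold change on this scale understates the change of low genes. edgeR 4.0.16 and DESeq2 1.42.0 on the recovered reads, other pseudocounts (0.5 and 5), filters, scalings and call rules, a replicate block and the omission of each library were alternatives. The procedures were tested on simulated data. Motifs and promoter sequences came from RefSeq (GRCh38.p14), with the first listed promoter of a gene, and the NRF1 motif was shortened by 1 letter after its first result was seen.

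Named members were those called in both clones with all *EPCART*-del libraries on one side of WT (up to 8 rises and 8 falls), up to 5 that differed between the clones, all members on chromosomes 2, 13 and 16 and 5 on chromosome 1, the 3 highest and the 3 lowest per length, and from each related list up to 2 genes called in both clones. *MRPL47*, *MRPS11*, *MRPL9*, *MRPS21*, *MRPS36*, *MRPL20* in the comparison of the *EPCART*-del clones, and head-to-head partners were added after their values were seen. The members and lists were chosen with earlier results of these data known. 1 marker of the check for other cell types is not reported here.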

Additional observations from a re-analysis of the deposited data

Results flagged for a closer look

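For 6 members the effect against WT differed between the *EPCART*-del clones by a test of the difference itself (limma, adjusted p under 0.05), where 10.9% of tested genes were higher and 9% lower in del-4. The log2 difference of del-4 from del-56 was 0.239 for *MRPS14*, 0.1997 for *MRPS10*, 0.196 for *MRPL40*, 0.148 for *MRPL34*, 0.131 for *MRPL20* and -0.220 for *MRPL18*. Of these calls, 3 were kept when each library in turn was left out (*MRPS14*, *MRPS10* and *MRPL18*).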

How the results depend on the processing

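An unadjusted p under 0.05 with a log2 fold change past 1 left 0 members in every comparison, and an unadjusted p alone gave 11 higher and 4 lower for del-4 against del-56. With each library set to the same total, 3 members were higher and 35 lower in del-4, 5 were higher in del-56, and 2 were higher and 4 lower in del-4 against del-56. Of all tested genes under that scaling, 13.6% were higher and 28.4% lower in del-4, 15.7% higher in del-56, and 7.9% higher and 13.6% lower between the clones. The median log2 fold change in del-4 moved with that scaling to -0.076 for all members, -0.071 and -0.13 for the large and small subunit, -0.24 for members on chromosomes 1, 2, 13 and 16 and -0.057 for the rest, and in del-56 to -0.20 for members on those 4 chromosomes. For del-4 against del-56, quantile normalization gave 3 higher and 2 lower, 1 fit of 9 libraries 2 lower and DESeq2 2 lower. Leaving out each library in turn gave 8 to 17 members higher and 16 to 23 lower in del-4, 5 to 11 higher and 17 to 21 lower in del-56, and 2 to 6 higher and 1 to 4 lower between the clones. Of the calls, 24 of 33, 21 of 31 and 3 of 6 were kept in every such fit. The cause of these shifts was not tested. The replicate numbers did not pair the libraries (correlations of same-numbered libraries from -0.12 to 0.067), and with the replicate number as a block 12 members were higher in del-4 and 5 in del-56, with 22 and 17 lower. For the ratio of subunit sums, alternatives added after seeing the data gave differences from WT of -0.016 (del-4) and -0.011 (del-56) without *MRPL37* and *MRPS34*, and of 0.022 and 0.031 without chromosomes 1, 2, 13 and 16. The other alternatives left the summary counts and medians within 1.5 times the count or within the spread between libraries. Of single named members, 60 calls were lost and 18 gained over the alternatives other than the call rules, and no call changed its direction. Depth was 91074556 or more reads per library, with 3 libraries per clone and 1 WT clone.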
